A study of Mus musculus with 2 samples.

Results

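The insulin-like growth factor (IGF) binding protein family was examined in mouse embryo fibroblasts (MEFs) through its 7 genes, Igfbp1 to Igfbp7. Its members were all probe sets whose single annotated gene symbol is 1 of these 7, which gave 16 of the 45037 probe sets on the array and 7 of 18193 genes. RNA came from Ebp1 knock out MEFs and from wild type MEFs, each with 1 array, so nothing here can be set against the spread between replicates, and neither errors nor p-values are printed. The knock out cells descend from mice with a retroviral gene trap in an intron of Pa2g4, the gene of the ErbB3 binding protein Ebp1 on a mixed C57BL/6 and 129SvEvBrd background. Wild type cells lack the trap. Both cultures were made from embryos of day 12.5, grown in medium with fetal bovine serum and harvested at passage 2. The number of embryos behind each culture was not given in the sources used here.

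IGF binding proteins are secreted proteins that hold IGF-1 and IGF-2 outside the cell. They prolong the life of the growth factors and keep them from the IGF-1 receptor until proteases cut the binding protein and set the ligand free. In fibroblasts they are made by the same cells that make and respond to IGFs. IGFBP-7 is the distant member, with weak affinity for IGFs.

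Pa2g4 had a signal of 1178 in Ebp1 knock out MEFs and 1835 in wild type MEFs on its brightest probe set, and its 5 probe sets stood at 53.8% to 79.8% of the wild type signal in knock out MEFs (64.2% on the brightest). The signal was thus lower but not near 0, which does not by itself bear out the knock out label. The paper reports that knock out MEFs lacked the Ebp1 transcript by RT-PCR and the protein by Western blot. The sources used here do not place these probe sets relative to the trap, and the genotype is used as labelled. The deposited signals are linear intensity units that the authors scaled to a constant target per array, and signals under 100 were taken as low. That was the case for 57.1% of probe sets in knock out and 57.9% in wild type MEFs. Control probe sets at the 3' end of Actb gave 1.21 times the signal of those at the 5' end in knock out and 1.29 times in wild type MEFs, and those of Gapdh 0.800 and 0.949 times in the same order. The hybridization spike-ins lay 0.39 higher on the knock out array on the log2 scale, so scaling to them lowers every log2 ratio by 0.39. Median centring lowers every ratio by 0.11. Of 9 fibroblast markers, 8 reached 500, and the summed signal of all 9 was 45413 in knock out and 44995 in wild type MEFs. On the brightest probe sets, Col1a1, Col1a2 and Vim were higher in knock out MEFs (log2 ratios of 0.10 to 0.26). The other 5 were lower, among them Pdgfrb (-0.67) and Thy1 (-0.58), while Fap had 155 in knock out and 409 in wild type MEFs. Of the probe sets of Col1a1, 1 of 2 was lower (-0.45), and of Col1a2 1 of 3 (-0.33), while all 3 of Vim were higher. After spike-in scaling all 8 markers were lower (median -0.42), and so were 93.1% of all genes that reached 500. The 5 epithelial markers summed to 1759 in knock out and 436 in wild type MEFs, of which 1 probe set of Epcam gave 1350.5 in knock out and 174 in wild type MEFs. The other probe set of Epcam had 4.07 in knock out and 5.81 in wild type MEFs. Krt19 had 197 in knock out and 88.0 in wild type MEFs, and Cdh1, Krt8 and Krt18 were under 100 on both arrays. The part of these marker signals in the values below was not tested. Whether the cultures were mixed was not tested. In a mixed culture, fewer cells that express a gene and less RNA per cell cannot be told apart.

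In Ebp1 knock out MEFs, Igfbp3, Igfbp4 and Igfbp5 had smaller signals than in wild type MEFs on their brightest probe sets, at log2 ratios of -2.13, -0.73 and -0.99. Igfbp2 and Igfbp6 lay close to the wild type signal (-0.09 and -0.25). Igfbp7 was the only member above it (0.35, or -0.04 after spike-in scaling), and Igfbp1 was low in both cultures. The sum of the 7 brightest probe sets was 17208 in knock out and 19734 in wild type MEFs. In the deposited scaling this sum thus stood at 87.2% of the wild type signal (log2 ratio -0.20). Spike-in scaling lowers that log2 ratio by a further 0.39. A sum over all probe sets weighs the members differently and gives Igfbp4 the largest part, so the figure depends on both choices.

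The stretches just before the transcription start are shown for 2 sets of members, both picked from these same signals. Igfbp3, Igfbp4 and Igfbp5 had the lowest ratios on their brightest probe sets among members not low on both arrays. Igfbp5 was lower on 1 of its 2 probe sets only. Igfbp2 and Igfbp7 were the brightest members. The sets were thus picked by different criteria, and the stretches of Igfbp1 and Igfbp6 are not shown. All 7 genes matched the RefSeq promoter set of GRCm38.p6. Each line gives the 80 bases that end at the base before the start, on the strand of the gene, and capitals mark a TATA-like stretch, which reads TATATA in Igfbp3 and TATAAA in Igfbp4, with TATTTAA found in Igfbp5.
Igfbp3: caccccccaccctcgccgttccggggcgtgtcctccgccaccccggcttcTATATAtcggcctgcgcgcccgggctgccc
Igfbp4: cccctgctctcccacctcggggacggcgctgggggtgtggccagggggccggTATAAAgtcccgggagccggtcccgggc
Igfbp5: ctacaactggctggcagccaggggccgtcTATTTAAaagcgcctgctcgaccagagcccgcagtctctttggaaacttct
Igfbp2: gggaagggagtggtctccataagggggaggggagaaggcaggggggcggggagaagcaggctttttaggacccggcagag
Igfbp7: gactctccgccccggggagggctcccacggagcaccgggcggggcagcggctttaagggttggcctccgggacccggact
These lie at chr11:7213924-7214003 on the minus strand for Igfbp3, chr11:99041164-99041243 on the plus strand for Igfbp4 and chr1:72874866-72874945 on the minus strand for Igfbp5. Those of Igfbp2 and Igfbp7 lie at chr1:72824400-72824479 on the plus strand and chr5:77408046-77408125 on the minus strand. The annotated gene runs from 7206086 to 7215498 for Igfbp3 and from 99040005 to 99052655 for Igfbp4. The stretches of these 2 thus lie inside the gene, and the start used for them is not the outermost one. The stretches of Igfbp2, Igfbp5 and Igfbp7 lie directly beside the annotated gene.
The motif began 30 bases before the start in Igfbp3, 28 in Igfbp4 and 51 in Igfbp5. In windows from 250 bases before to 50 after the start, read on both strands, TATAAA occurs in 13.6%, TATATA in 5.67% and TATTTAA in 4.51% of 32851 promoters. No 2 of these matches overlapped in the members' windows, and TATTTAA was added after the Igfbp5 sequence had been read. Without TATTTAA, the window of Igfbp5 held none of the motifs searched. The GC box letters GGGCGG, present in 35.7% of promoters, occurred 3 times before Igfbp2 and 4 times before Igfbp7, and in none of the windows of Igfbp3, Igfbp4 and Igfbp5. Igfbp2 has another annotated start, whose window held none of the 5 motifs searched, of which CCAAT, found in 37.4% of promoters, was seen only before Igfbp6. Igfbp6 also held TATAAA on the opposite strand, and Igfbp1 held none of the 5. A match is a description of the letters and not a site. Whether a TATA-like stretch goes with a lower ratio was not tested.

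Igfbp3 encodes the main IGF carrier of serum, which binds the ligand together with the acid-labile subunit. Its brightest probe set, 1423062_at, had a signal of 387 in Ebp1 knock out MEFs and 1694 in wild type MEFs, which is 4.38-fold lower. Its other probe set, 1458268_s_at, had 316 in knock out and 1137 in wild type MEFs (log2 ratio -1.85). Both probe sets were bright in wild type MEFs and between 100 and 500 in knock out MEFs, and they differ from each other by 0.28 on the log2 scale. Of all 7857 probe sets that reached 500 on at least 1 array, 15 had a log2 ratio at or below that of 1423062_at, counting itself. Igfbp3 was lower under each of the 10 alternatives tried, with log2 ratios from -2.52 to -1.76. Several of these, such as scaling to the spike-ins or raising low signals, could not have reversed its sign.

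Igfbp4 encodes a binding protein that mostly restrains IGF action and is cut by the protease PAPP-A. It has 6 probe sets, more than any other member, and all 6 were lower in Ebp1 knock out MEFs. The brightest, 1437405_a_at, had 2674 in knock out and 4432 in wild type MEFs (log2 ratio -0.73). The next, 1437406_x_at, had 2249.9 in knock out and 4165 in wild type MEFs (-0.89), and 1423756_s_at had 2099.9 and 3902 in the same order (-0.89). After these, 1423757_x_at had 1301 in knock out and 2319 in wild type MEFs (-0.83). These 4 lie within 0.16 of each other on the log2 scale. The remaining 2 were dimmer and had ratios closer to 0. Probe set 1421992_a_at had 675 in knock out and 887 in wild type MEFs (-0.39), and 1421991_a_at, the dimmest, had 101 in knock out and 146 in wild type MEFs (-0.53), the first just over the level taken as low. All 6 were within 2-fold in the deposited scaling, and the brightest passed 2-fold only after spike-in scaling (-1.12).

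Igfbp5 encodes a binding protein that adheres to matrix and, like IGFBP-3, can enter the ternary complex with the acid-labile subunit. Its probe sets contradicted each other. The brightest, 1452114_s_at, had 479 in Ebp1 knock out MEFs and 949 in wild type MEFs (log2 ratio -0.99), just within 2-fold, while 1422313_a_at had 275 in knock out and 163 in wild type MEFs (0.76). Both were over 100 on both arrays, and the ratios were 1.75 apart. A gap of this size was rare on these arrays. Among 4573 other probe sets with at least 100 on both arrays, of 2763 genes whose brightest probe set reached 500, the median distance from the log2 ratio of the brightest was 0.27, and 0.350% were at least as far from it as that of Igfbp5. Opposite signs with both ratios over 1.5-fold occurred in 10 of the 4573. The sources used here do not place the probe sets on the transcript, and the direction for Igfbp5 therefore rests on which probe set is read. The mean of both gave -0.11, and without probe sets of the suffix _s_at, which marks probes shared by several transcripts, it was 0.76.

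Igfbp2 and Igfbp7 were the brightest members in both cultures. Igfbp2, a binding protein abundant in fetal tissues, had 6094 in Ebp1 knock out MEFs and 6478 in wild type MEFs on its only probe set, 1454159_a_at (log2 ratio -0.09, and -0.48 after spike-in scaling). Igfbp7, whose product is also known as Mac25, had 7026 in knock out and 5523 in wild type MEFs on 1423584_at (0.35, or -0.04 after spike-in scaling). Its other probe sets pointed the same way at a far lower signal, with 118 in knock out and 94.1 in wild type MEFs on 1423585_at, and 24.0 in knock out and 17.3 in wild type MEFs on 1437804_at. The last was low on both arrays, so the direction of Igfbp7 rests on the bright probe set and on the scaling.

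Igfbp6, which encodes the binding protein with a preference for IGF-2, had 541 in Ebp1 knock out MEFs and 644 in wild type MEFs on 1417933_at (log2 ratio -0.25). This difference lies well inside the middle 95% of all probe sets that reached 500, which ran from -0.72 to 0.83. Igfbp1, a gene of liver and decidua under insulin control, had 6.51 in knock out and 14.5 in wild type MEFs on 1418918_at. No ratio is read from these, since both are under 100. The 4 hepatocyte markers measured, among them Alb and Afp, were also under 100 on both arrays.

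**Figure D1:**
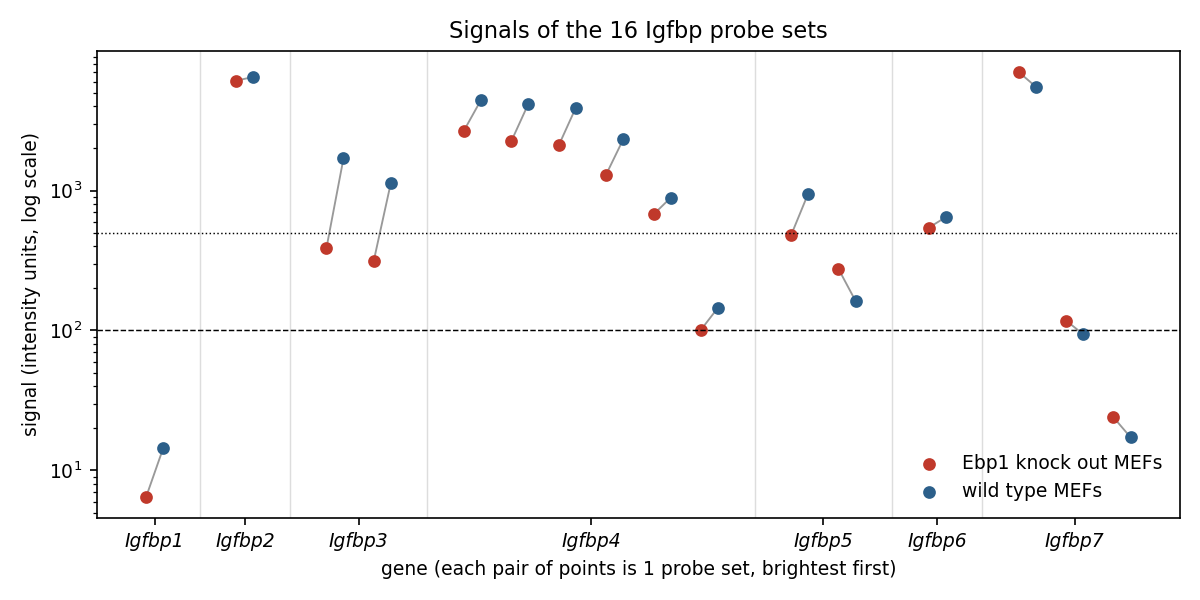
Signals of the 16 Igfbp probe sets in intensity units on a logarithmic axis, with Ebp1 knock out MEFs in red at the left and wild type MEFs in blue at the right of each pair, 1 array each. The dashed line marks 100 and the dotted line 500. The pairs of Igfbp3 and Igfbp4 all slope the same way, those of Igfbp5 slope in opposite directions, and Igfbp1 lies under 100 in both cultures.

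Of the 6 members that reached 500, 5 had the lower signal in Ebp1 knock out MEFs and 1 the higher, where 57.8% of all 5014 genes that reached 500 were lower. After spike-in scaling all 6 were lower, and so were 93.1% of the 5014 genes. The median log2 ratio of the 6 members was -0.49, against -0.05 for all 5014 genes. Without probe sets of the suffixes _x_at and _s_at, which leaves out Igfbp5, the median of the remaining 5 members was -0.25. Only Igfbp3 was over 2-fold lower and none was over 2-fold higher, where the background over all genes is 1.06% lower and 0.758% higher. With a threshold of 1.5-fold, 3 of the 6 were lower (Igfbp3, Igfbp4 and Igfbp5) and none higher, against a background of 5.11% lower and 2.99% higher. Igfbp5 counts here on 1452114_s_at alone. Without probe sets of the suffixes _x_at and _s_at it did not reach 500, its remaining probe set lay higher in knock out MEFs (0.76), and 2 of the 5 members left were over 1.5-fold lower. Igfbp3 and Igfbp4 were picked out by the study from these same arrays, so their direction is no independent evidence about the family. Apart from the arrays, the paper reports less IGFBP-3 protein by Western blot in liver and kidney of adult knock out mice. Counted as probe sets, 10 of the 11 that reached 500 were lower, against 52.7% of all probe sets that did, and 2 of them, both of Igfbp3, were over 2-fold lower, where the background was 0.942%. In either direction it was 2.58% of probe sets, with 129 higher and 74 lower, or 43 higher and 311 lower after spike-in scaling and 91 higher and 105 lower after median centring.

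**Figure D2:**
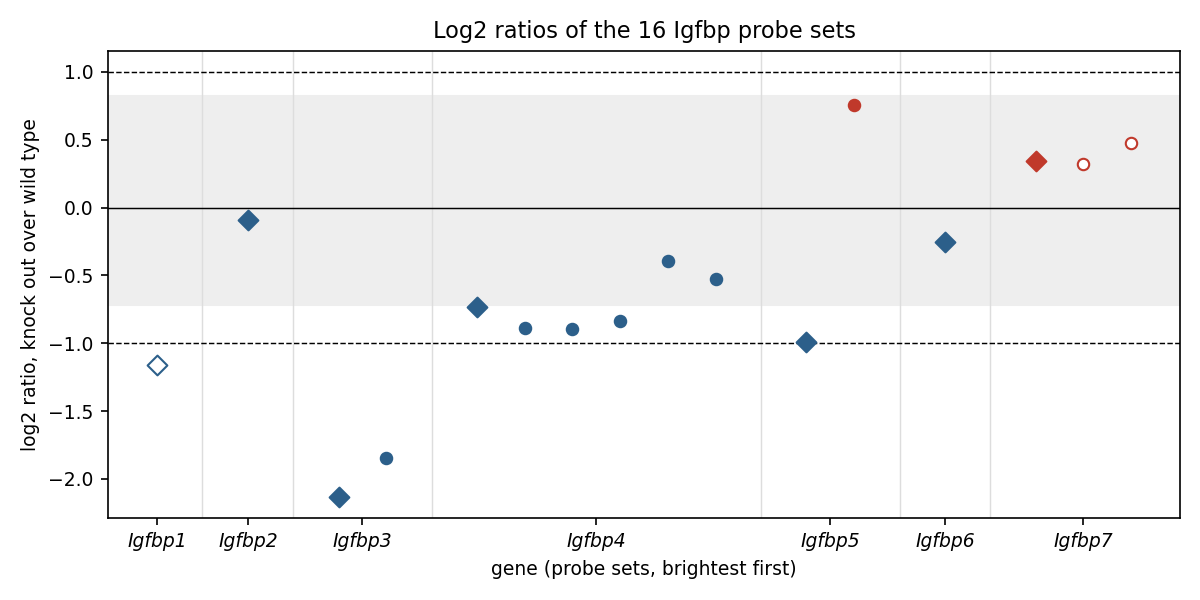
The same 16 probe sets as log2 of the knock out signal divided by the wild type signal, in the deposited scaling. Diamonds mark the brightest probe set of each gene and circles the others, blue below 0 and red above 0, and open symbols had a signal under 100 on at least 1 array. The grey band spans the middle 95% of the 7857 probe sets that reached 500 (-0.72 to 0.83), and dashed lines mark 2-fold. Both probe sets of Igfbp3 lie below the band, and those of Igfbp5 lie on either side of 0. After spike-in scaling all points lie 0.39 lower and the bright Igfbp7 point lies below 0.

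**Figure D3:**
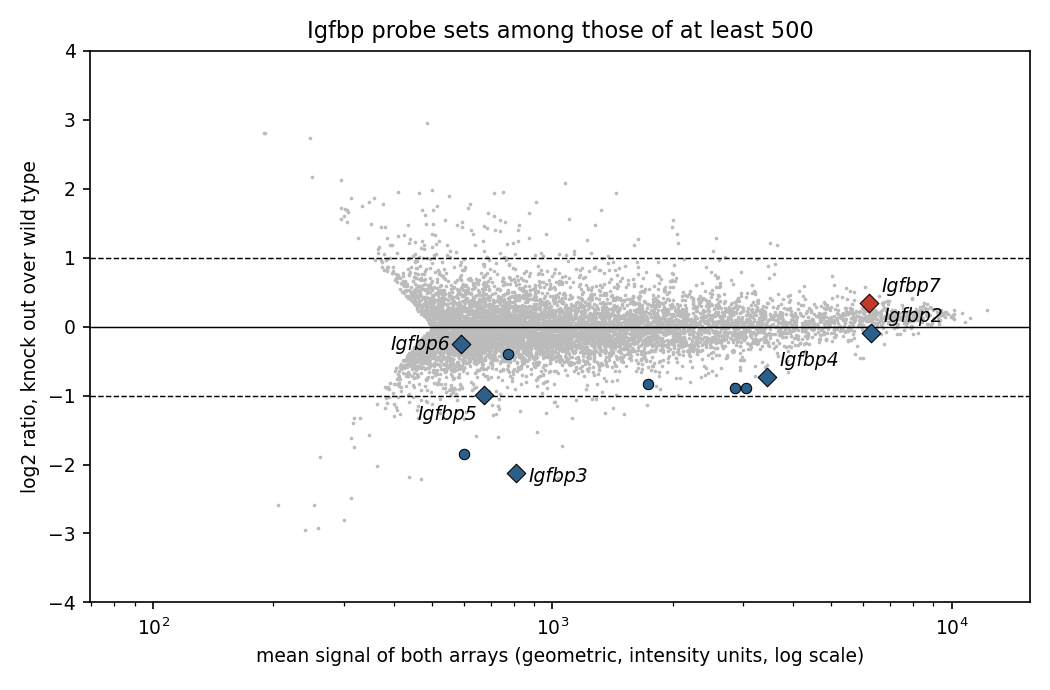
Log2 of the knock out signal divided by the wild type signal, against the mean signal of both arrays for the 7857 probe sets that reached 500 (grey), with the 11 Igfbp probe sets among them (diamonds for the brightest of a gene, circles for others, blue below 0 and red above 0). Dashed lines mark 2-fold, and 7 grey points lie outside the vertical range. Igfbp3 stands apart from the cloud at -2.13, while Igfbp2 and Igfbp7 sit in it at the bright end (Igfbp7 at 0.35, or -0.04 after spike-in scaling).

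The share of each member in the family's summed signal was set beside the ratios because a single scale factor per array leaves shares as they are. A share is one of signal and not of mRNA, since probe sets respond differently. Shares also depend on each other, so a share can rise while the signal of that gene falls. In Ebp1 knock out MEFs Igfbp7 held 40.8% of the family signal, against 28.0% in wild type MEFs. Igfbp2 held 35.4% in knock out and 32.8% in wild type MEFs, though its signal was the lower one in knock out MEFs. Together these 2 made up 76.2% of the family in knock out and 60.8% in wild type MEFs. Igfbp4 held 15.5% in knock out and 22.5% in wild type MEFs, Igfbp3 2.25% and 8.58% in the same order, and Igfbp5 2.78% and 4.81%. Igfbp3 and Igfbp4, whose probe sets were all lower, made up 17.8% of the family signal in knock out and 31.0% in wild type MEFs. With Igfbp5 this was 20.6% in knock out and 35.8% in wild type MEFs, or 19.6% and 33.2% in the same order without the suffixes, where the share of Igfbp5 was itself the larger one in knock out MEFs (1.62% against 0.859%). The share of Igfbp6 was almost alike, at 3.15% in knock out and 3.26% in wild type MEFs, and that of Igfbp1 was 0.0378% and 0.0735%. The sum over all probe sets raised the share of Igfbp4, which has the most of them, to 37.3% in knock out and 48.7% in wild type MEFs.

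**Figure D4:**
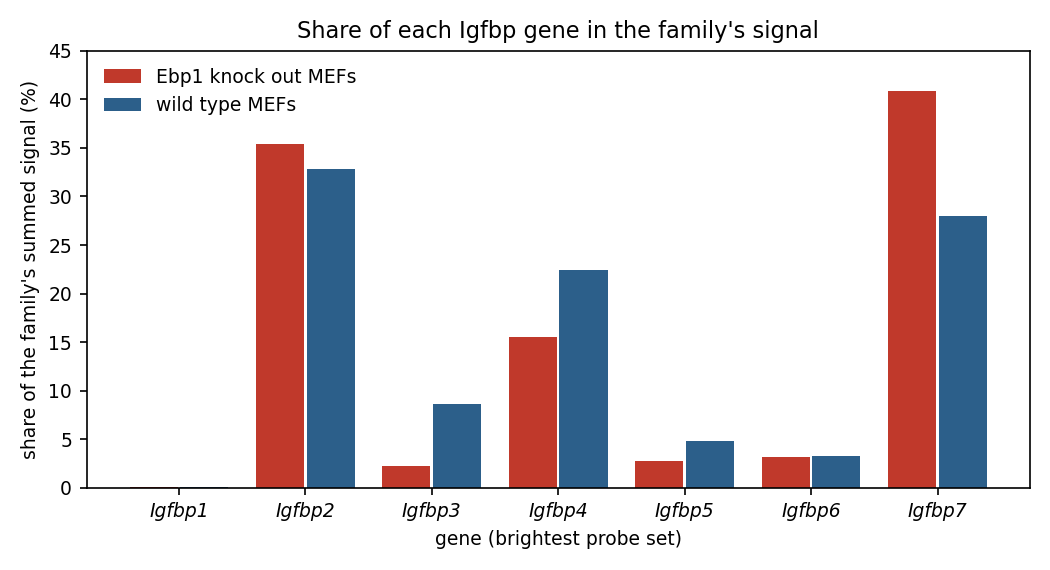
Share of each Igfbp gene in the summed signal of the 7 brightest probe sets, in percent, for Ebp1 knock out MEFs (red, left) and wild type MEFs (blue, right), 1 array each. Igfbp7 has the larger share in knock out MEFs (40.8% against 28.0%), and Igfbp3 and Igfbp4 have the larger shares in wild type MEFs.

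The members hold 2 pairs of neighbours in the genome, and the genes of a pair differed in signal or in ratio. Igfbp1 and Igfbp3 lie on chromosome 11 (GRCm38.p6, 7197787 to 7202546 and 7206086 to 7215498), end to end on opposite strands with 3539 bases and no annotated gene between them. Igfbp1 was under 100 on both arrays, while Igfbp3 had 1694 and 1137 in wild type MEFs. Igfbp2 and Igfbp5 lie on chromosome 1 (72824480 to 72852474 and 72858065 to 72874865) in the same arrangement, 5590 bases apart. Igfbp2 had a log2 ratio of -0.09 and Igfbp5 of -0.99 on the brightest probe sets, though the other probe set of Igfbp5 gave 0.76. Igfbp4 is on chromosome 11 as well, far from Igfbp3 (99040005 to 99052655), Igfbp6 on chromosome 15 and Igfbp7 on chromosome 5.

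Among the ligands and receptors that the binding proteins serve, Igf1, Igf2 and Igf2r were lower in Ebp1 knock out MEFs under each scaling and Igf1r was higher. Of the 4 genes of this list that reached 500, only Igf1, the ligand carried by most of the family, was over 2-fold apart. In the deposited scaling, 57.8% of all 5014 genes that reached 500 were lower, 1.06% over 2-fold lower and 0.758% over 2-fold higher. Igf1 had 692 in knock out and 1475 in wild type MEFs on its brightest probe set (log2 ratio -1.09). Igf2 had 5269 in knock out and 6401 in wild type MEFs (-0.28), and Igf2r, the receptor that clears IGF-2, had 1859.9 and 2619.8 in the same order (-0.49). Igf1r, the signaling receptor, had 1799 in knock out and 1358 in wild type MEFs (0.41, or 0.01 after spike-in scaling), and its 5 probe sets were all higher in the deposited scaling. Insr stayed under 500. The other 3 probe sets of Igf1 were lower within 2-fold (-0.97, -0.81 and -0.63), and the mean over all 4 was -0.87, so its 2-fold call rests on the brightest. Igf1 too was picked out by the study from these arrays. Apart from them, the paper reports less IGF-1 by ELISA in medium of knock out MEFs and in serum of knock out mice.

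None of the 7 proteases of IGF binding proteins that reached 500 was over 2-fold apart. Of all 5014 genes that reached 500, 1.06% were over 2-fold lower and 0.758% higher, so none of 7 is near that share. The list of proteases, with the stanniocalcin inhibitors of PAPP-A, had 16 genes, of which 5 were under 100 on both arrays. In Ebp1 knock out MEFs 4 of the 7 were lower and 3 higher (median log2 ratio -0.07), where 57.8% of all genes were lower. After spike-in scaling or median centring 6 were lower. Of all genes, 93.1% were lower after spike-in scaling. Pappa, whose product cuts IGFBP-4, had 1655 in knock out and 1571 in wild type MEFs (0.07, or -0.32 after spike-in scaling and -0.03 after median centring). Its other probe sets were higher in knock out MEFs in the deposited scaling. They had 1244 in knock out and 993 in wild type MEFs (0.33), and 136 and 97.8 in the same order (0.47). Pappa2, the protease of IGFBP-3 and IGFBP-5, was dim, with 146 in knock out and 385 in wild type MEFs. The brightest of the list were Ctsd, which encodes cathepsin D (6029 in knock out and 4433 in wild type MEFs, 0.44), and Mmp14, a membrane metalloproteinase (3445 and 4185 in the same order, -0.28). The other 2 probe sets of Mmp14 were higher in knock out MEFs, 1 of them with 2020.5 in knock out and 1257 in wild type MEFs (0.69). Mmp2 had 1829.6 in knock out and 2748 in wild type MEFs (-0.59). It was the only 1 of the 7 over 1.5-fold lower, where the background was 5.11% of all genes. Stc1 and Stc2 did not reach 500, with 111 in knock out and 110.4 in wild type MEFs for Stc1 and 223 and 226 in the same order for Stc2. Igfals, the gene of the acid-labile subunit, was under 100 on both arrays (8.41 in knock out and 38.1 in wild type MEFs), so the third part of the serum complex had only a low signal in either culture.

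Proteins with an N-terminal domain like that of the binding proteins were read beside the family as its nearest relatives. Of 10 such genes 6 reached 500. In Ebp1 knock out MEFs 3 of these were lower and 3 higher, and they had a median log2 ratio of 0.01 (-0.09 after median centring and -0.38 after spike-in scaling). Of all genes that reached 500, 57.8% were lower, or 93.1% after spike-in scaling. Ccn3, a matricellular growth regulator, was the only 1 of the 6 over 2-fold apart, where the background was 1.06% lower and 0.758% higher. Ccn3 had 543 in knock out and 1270.3 in wild type MEFs on its brightest probe set (-1.23) and 521 in knock out and 999 in wild type MEFs on the other (-0.94). The brightest relatives, Ccn2 (9166 in knock out and 6923 in wild type MEFs, 0.40) and Ccn1 (6792 and 6023 in the same order, 0.17), lay above the wild type signal in the deposited scaling, and Ccn1, of whose 4 probe sets 2 were lower, lay below it after spike-in scaling (-0.22). Igfbpl1, named for its likeness to the family, was under 100 on both arrays. Over all lists of the wider IGF axis, 24 genes reached 500, of which 12 were lower and 12 higher, with a median of -0.03. This was -0.42 after spike-in scaling, with 19 lower. The 2 of these genes over 2-fold apart, Igf1 and Ccn3, were both lower, against a background of 1.06%, and with the mean over probe sets Igf1 is no longer over 2-fold (-0.87).

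**Figure D5:**
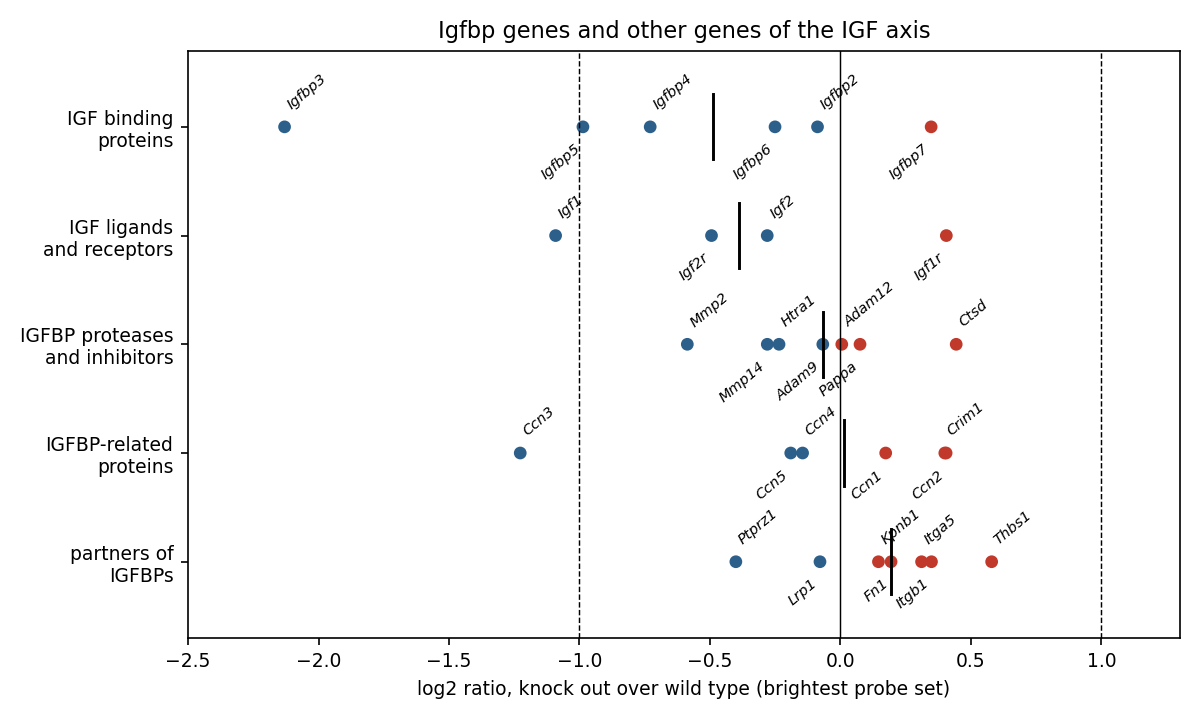
Log2 of knock out signal divided by wild type signal on the brightest probe set, for the 6 Igfbp genes and for the other genes of the IGF axis that reached 500, by list, in the deposited scaling. Each point is 1 gene (blue below 0, red above 0), black bars are list medians and dashed lines mark 2-fold. The binding proteins have a median of -0.49 and the proteases one of -0.07. Igfbp5 is drawn on 1452114_s_at, and without the suffixes _x_at and _s_at the median of the 5 binding proteins left is -0.25. After spike-in scaling every point lies 0.39 lower, which puts Igfbp7, Pappa, Adam12, Ccn1, Itga5, Itgb1, Fn1 and Kpnb1 below 0.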

How the data were processed

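RNA from 1 Ebp1 knock out and 1 wild type MEF culture was hybridized to 1 array each. The deposited values are signal intensity per probe set, made by the authors with MAS5 (Microarray Suite 5.0 per the paper's methods) and scaled per array to a constant target. Their trimmed mean without the outer 2% was 250.0 on both arrays. MAS5 subtracts mismatch probes, which makes ratios of dim probe sets unsteady, and the number of arrays limits the precision. Control probe sets (64) were left out. Of the others, 34945 had 1 gene symbol, 932 had several and 9160 were unnamed here. Names were updated through Entrez identifiers (34741 matched, GRCm38.p6).
Ratios are given as log2 of the knock out signal over the wild type signal. The probe set with the highest mean log2 signal was read per gene, and a gene was counted with at least 500 on 1 array and over 2-fold. No test was run. The steps were tested on simulated data, where only bright probe sets were altered and by at least 3-fold. That test does not cover the smaller ratios reported for most members. Some genes on the lists are not reported here.
Named are all members, and of each list any gene over 2-fold apart with the 2 brightest that were not. Igf1r, Insr, Pappa, Pappa2, Mmp2, Stc1, Stc2, Igfals, Igfbpl1 and the markers were named after their values were seen. The members and lists were chosen with earlier results of these data known. Computations were run in Python 3.11.15 with pandas 2.3.3 and numpy 2.4.6. Loess used a fraction of 0.3 in statsmodels 0.14.6, and plots were drawn with matplotlib 3.10.9.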

Additional observations from a re-analysis of the deposited data

How the results depend on the processing

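Of 60 log2 ratios of members under 10 alternatives 57 stayed within 1.5-fold of the reported value. The exceptions were Igfbp5 with the mean over all probe sets or over those of at least 100 (-0.11 in both) and without the suffixes _x_at and _s_at (0.76), where the sign changed. The sign also changed for Igfbp7 with spike-ins (-0.04). The cause was not tested. Many of the 60 could not move. Median centring and spike-in scaling shift every ratio by the same amount, which is less than 1.5-fold. Raising low signals leaves bright ones as they are, and Igfbp2 and Igfbp6 have 1 probe set each. The count of 57 is therefore no measure of robustness. The reported count of 1 member over 2-fold was 2 with median centring and with no minimum, 3 with spike-ins and at 1.5-fold, and 0 with 500 on both arrays, all of them lower. Of the axis lists, 2 genes became 1 with either mean over probe sets (without Igf1), 4 with a minimum of 100, 6 with no minimum and 0 at 3-fold. The 203 probe sets became 354 with spike-ins, 88 with signals raised to 500, 1083 with a minimum of 100, 51 with 500 on both arrays, 7987 with no minimum, 775 at 1.5-fold, 59 at 3-fold and 91 with 1 probe set per gene.
Shares depend on which probe sets are summed, and 23 of 82 moved by over 1.5 times. With the mean over all probe sets they were, in knock out and wild type MEFs, 70.5% and 60.0% for Igfbp2, 6.26% and 5.97% for Igfbp6 and 3.13% and 1.93% for Igfbp7, with Igfbp3 at 4.05% and Igfbp5 at 4.20% in knock out MEFs. With the mean over probe sets of at least 100, Igfbp4 held 6.62% in knock out and 10.4% in wild type MEFs and Igfbp5 2.44% in wild type MEFs. With the sum over all probe sets, Igfbp4 held 37.3% in knock out and 48.7% in wild type MEFs, and in wild type MEFs Igfbp2 held 19.9%, Igfbp6 1.98% and Igfbp7 17.3%. Without the suffixes, Igfbp5 held 1.62% in knock out and 0.859% in wild type MEFs. No paired analysis was possible because each genotype has a single array. Signals under 100 limit what can be read from Igfbp1 and the dim probe sets of Igfbp7.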

Other observations

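Cell surface, matrix and nuclear partners of the binding proteins were read as well. Of 10 measured genes 7 reached 500, and 5 of these lay higher and 2 lower in Ebp1 knock out MEFs (median log2 ratio 0.19), while after spike-in scaling 6 were lower (median -0.20). Of all genes that reached 500, 57.8% were lower, or 93.1% after spike-in scaling. None of the 7 was over 2-fold apart on the brightest probe set, where the background was 1.06% lower and 0.758% higher. Thbs1, which encodes the matrix protein thrombospondin-1, had 7432 in knock out and 4974 in wild type MEFs (0.58, or 0.19 after spike-in scaling), and its other probe set had 4021 and 1650.4 in the same order (1.28). Fn1, the gene of fibronectin, had 8319.5 in knock out and 7273 in wild type MEFs (0.19, or -0.20 after spike-in scaling).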
